A study of Homo sapiens with 70 samples.

Results

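The high mobility group (HMG) proteins are a set of small, abundant chromatin proteins, and 9 of the genes that encode them are described here: HMGA1 and HMGA2, HMGB1, HMGB2 and HMGB3, and HMGN1, HMGN2, HMGN3 and HMGN5. They were chosen by name and matched through their Ensembl identifiers, which gave 9 of the 44503 genes in each of 3 RNA-seq count tables. All 9 passed the low-count filter in every comparison. The study asked how HMGA1 shapes gene expression in oncogene-induced senescence (OIS), the stable arrest that an activated RAS oncogene provokes in normal fibroblasts. The IMR90 libraries came from human lung fibroblasts that all carried pLNCX2 ER:HRAS G12V, a fusion of oncogenic HRAS to an oestrogen receptor domain that 4-hydroxytamoxifen (4OHT) switches on, and control cells carried it too, without the drug. The first table held 8 libraries each of Grow (no 4OHT, vector pMSCV miR v), Grow-shA1 (no 4OHT, pMSCV miR shHMGA1), OIS (100 nM 4OHT for 6 days, vector) and OIS-shA1 (4OHT, pMSCV miR shHMGA1). The second held 5 libraries each of Grow-v-v (day 0, both empty vectors pSuper v and pMSCV miR v), OIS-v-v (4OHT for 6 days, both empty vectors), OIS-shCEBPB (4OHT, pSuper shCEBPB with pMSCV miR v), OIS-shp53 (4OHT, a p53 hairpin with pSuper v) and OIS-shCEBPB-shp53 (4OHT, both hairpins). The last held 7 libraries of H1299, a non-small cell lung carcinoma line, with pMSCV miR v and 6 with pMSCV miR shHMGA1. Each knock-down was named with a single hairpin construct. The labels speak of 6 biological replicates of each condition and do not say which libraries came from separate cultures, so the p-values measure the spread between these libraries.

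HMGA proteins bind the minor groove of AT-rich DNA through AT-hooks and bend it, and in senescent fibroblasts they are known as structural parts of senescence-associated heterochromatin foci. HMGB proteins hold HMG boxes that bend DNA; HMGB1 also acts outside the cell as an alarmin, and loss of HMGB2 is a known feature of senescent cells. HMGN proteins bind the nucleosome itself and counter its compaction by linker histone H1. HMGA2 is best known as an embryonic chromatin protein whose messenger is a target of the let-7 microRNAs.

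In hg19 coordinates HMGA1 (ENSG00000137309) lies at chr6:34204650-34214008 on the plus strand and HMGA2 (ENSG00000149948) at chr12:66217911-66360075, also on the plus strand. HMGB1 (ENSG00000189403) lies at chr13:31032884-31191734, HMGB2 (ENSG00000164104) at chr4:174252846-174256276, both on the minus strand, and HMGB3 (ENSG00000029993) at chrX:150148982-150159248 on the plus strand. HMGN1 (ENSG00000205581) lies at chr21:40714241-40721573 on the minus strand, HMGN2 (ENSG00000198830) at chr1:26798941-26802463 on the plus strand, HMGN3 (ENSG00000118418) at chr6:79910962-79944406 and HMGN5 (ENSG00000198157) at chrX:80369200-80457441, both on the minus strand. Counts were taken over all exons of a gene and, in the tables whose headers survive, without regard to strand. HMGN3 shares 16.5% of its exon length with the antisense gene HMGN3-AS1 and HMGA2 shares 4.5% with HMGA2-AS1, so reads from those stretches cannot be assigned to either strand.

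The libraries held 13904974 to 24890797 counts, except OIS replicate 4 with 1903607. The summed level of 8 lung fibroblast markers was 37500 to 46790 CPM (the counts-per-million value) in Grow and 5531 to 6835 in OIS, and that of 3 immune markers was 16.2 to 22.7 CPM in Grow and 43.9 to 58.6 in OIS. Nearly all of the immune sum was CD68, with means of 19.17 CPM in Grow and 52 in OIS. CD14 (0.39 CPM in Grow, 0.31 in OIS) and PTPRC (0.056 and 0.168) were barely detected. Epithelial markers summed to 42.9 to 94.4 CPM in Grow and OIS, and to 814 to 1138 in H1299 with the vector and 630 to 716 with shHMGA1. In H1299 with the vector nearly all of this was KRT8 (mean 494.7 CPM) and KRT18 (444.6). EPCAM (0.147), CDH1 (0.276) and KRT19 (0.214) were barely detected there. In bulk RNA fewer cells that use a gene and less of its RNA per cell cannot be told apart. The targeted CEBPB was lower in every library of its knock-down, at 295 ± 25.7 CPM (SD, n = 5) in OIS-v-v and 35.5 ± 6.56 in OIS-shCEBPB.

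The HMG messengers spanned a wide range of levels in proliferating fibroblasts. Divided by exon length, to allow genes to be compared, HMGA1 stood at 230 ± 19.7 CPM per kb (SD, n = 8) and HMGA2 at 148 ± 9.77 in Grow, and their ranges overlapped neither each other nor any other member's. HMGB2 (29.01), HMGN3 (27.2), HMGN2 (25.1), HMGN1 (20.5) and HMGB1 (18.7) followed; in that order the ranges of HMGB2 and HMGN3, of HMGN3 and HMGN2 and of HMGN1 and HMGB1 overlapped. HMGB3 stood at 12.8 and HMGN5, a nucleosome-binding member with a long acidic tail, was last at 0.719 CPM per kb. In OIS the HMGA pair was again at the top, with HMGA1 at 350 and HMGA2 at 228 CPM per kb, and HMGB2 had moved from the third place to the eighth, at 2.05. In H1299 cells, whose table was normalised separately, HMGA1 stood at 901 CPM per kb, HMGA2 at 191, HMGB2 at 80.8, HMGN3 at 59.5 and HMGN2 at 52.4, and HMGN5 was again last at 0.163.

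Senescence moved the HMGA pair up and the other members down. In OIS against Grow 9 of the 9 members passed an adjusted p of 0.05 in edgeR's quasi-likelihood test, 2 of them higher and 7 lower, where 74.8% of the 13304 genes tested passed (38.8% higher and 35.9% lower). The median log2 fold change of the members was -0.86, against 0.03 over all genes tested. The libraries of OIS and Grow did not overlap for 8 of the 9 members, as for 43.7% of genes.

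HMGA1 was 436 to 557 CPM in the 8 Grow libraries (median 469) and 631 to 825 in the 8 OIS libraries (median 745), with no overlap, a log2 fold change of 0.65 (95% interval 0.54 to 0.76). HMGA2 was 1186 to 1398 CPM in Grow (median 1226) and 1651 to 2133 in OIS (median 1956). These groups did not overlap either, and the log2 fold change of HMGA2 was 0.66 (0.55 to 0.76, edgeR adjusted p = 2.26e-12), a rise to 158% of Grow.

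Of the HMGB genes, HMGB2 and HMGB3 fell the most. HMGB2 was 69.7 to 83.1 CPM in Grow (median 80.0) and 4.15 to 6.65 in OIS (median 5.73), which rested on 13 to 123 counts a library. Every OIS library lay far below every Grow library, and the level in OIS was 7.17% of that in Grow (log2 fold change -3.80, SE 0.075, edgeR adjusted p = 5.25e-26). HMGB3, a family member best known from stem and progenitor cells, was 40.5 to 55.8 CPM in Grow (median 51.2) and 9.98 to 16.2 in OIS (median 12.5). Its OIS level was 23.9% of Grow, again without overlap (log2 fold change -2.06, SE 0.075). HMGB1 was 100.1 to 115 CPM in Grow (median 109) and 52.2 to 72.5 in OIS (median 57.3). HMGB1 thus kept 55.3% of its Grow level (log2 fold change -0.86, SE 0.054), and its groups did not overlap.

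The HMGN genes fell unequally, HMGN2 the most. HMGN2 was 55.7 to 67.3 CPM in Grow (median 63.6) and 24.3 to 28.1 in OIS (median 26.2), 42.7% of Grow with no overlap (log2 fold change -1.23, SE 0.049). HMGN1 was 91.0 to 109 CPM in Grow (median 103) and 75.9 to 86.2 in OIS (median 79.1), 80.8% of Grow and again without overlap (log2 fold change -0.31, SE 0.043, edgeR adjusted p = 2.6e-07). HMGN3 was 21.3 to 25.9 CPM in Grow (median 24.8) and 15.9 to 19.5 in OIS (median 18.01), 75.9% of Grow and not overlapping. HMGN5 was 1.06 to 2.64 CPM in Grow (median 1.47) and 0.688 to 1.91 in OIS (median 0.899). This was the member whose groups overlapped, 7 of the 8 OIS libraries lying below every Grow library, and the highest OIS value came from the shallow replicate 4, with 4 counts (log2 fold change -0.90, SE 0.226).

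**Figure D1:**
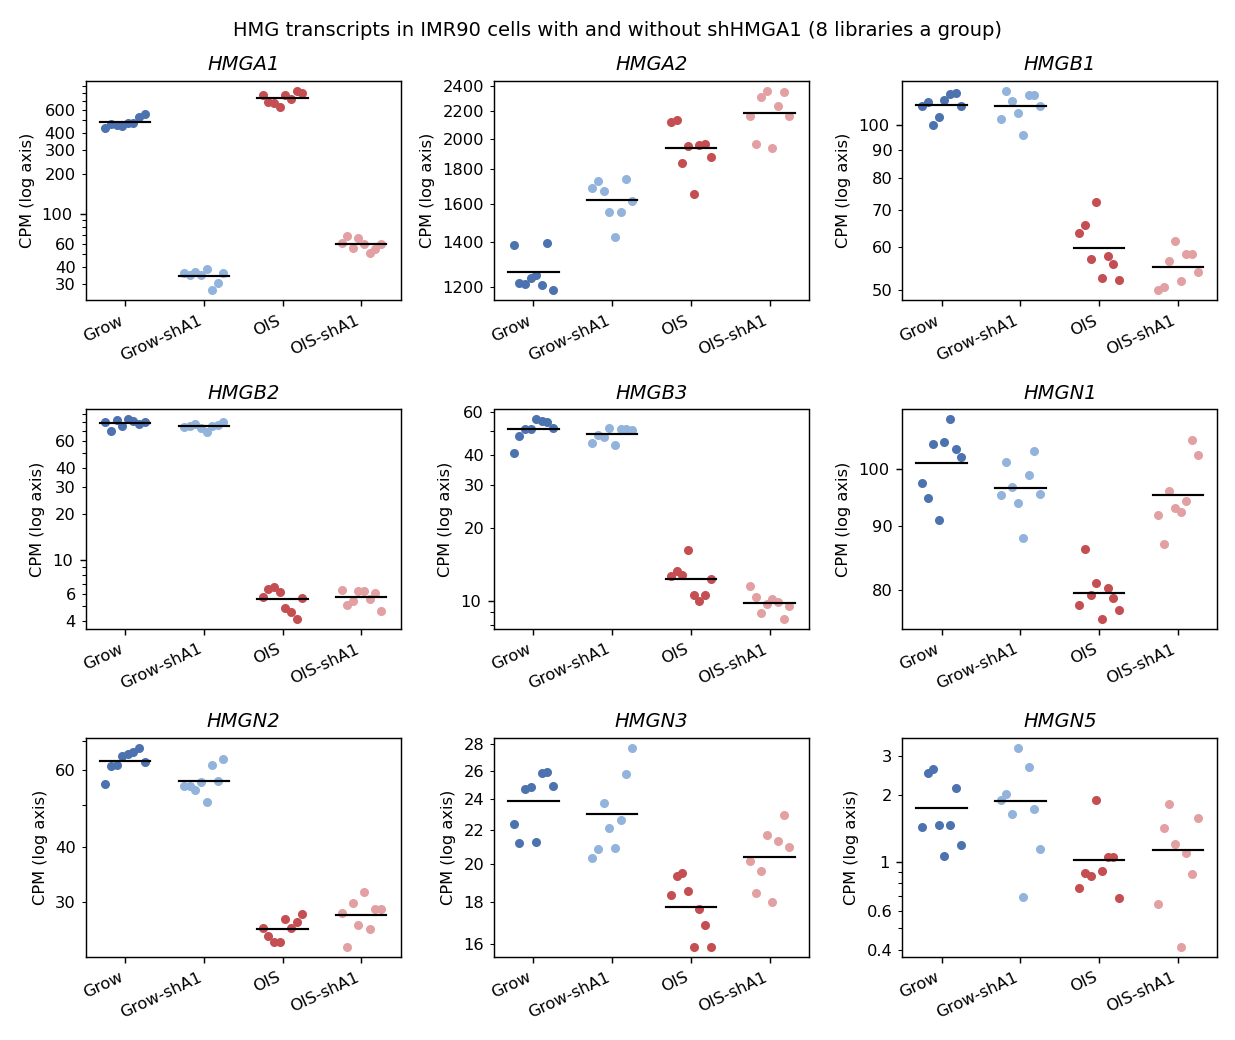
Level of each HMG messenger (CPM, log axis, a separate scale for each gene) in the 8 libraries of each IMR90 group of the first table; points are libraries and black lines are means. HMGA1 and HMGA2 are higher in OIS than in Grow and the other genes lower, with HMGB2 falling from 78.5 to 5.56 CPM on average.

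The proliferation genes, a list of 15 replication and mitosis genes, moved with the HMGB genes: 15 of the 15 were lower in OIS, with a median log2 fold change of -2.70 and values of -4.06 for MKI67, -3.80 for CCNA2 and -3.41 for TOP2A. Over all genes tested 35.9% were lower. The summed level of the 15 was 1997 to 2357 CPM in Grow and 358 to 442 in OIS. Their part in the fall of HMGB2, HMGB3 and HMGN2 was not tested. Nor was that of the fibroblast markers, of which 8 of 8 fell (COL1A2 by 3.69 on the log2 scale), or of the immune marker CD68, which fibroblasts also express and which rose (log2 fold change 1.5).

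The members that fell together were examined for shared letters before their transcription starts. RefSeq (GRCh38.p14) start sites were at hand for 7 of the 9 members, but not for HMGB2, which fell the most, or for HMGA2, which rose. The 250 bases before the first listed start are shown for HMGB1, HMGB3 and HMGN2, which fell to 55.3%, 23.9% and 42.7% of Grow, and for HMGA1, which rose. The positions are chr13:30465937-30466186 (minus strand) for HMGB1, chrX:150983085-150983334 (plus) for HMGB3, chr1:26472190-26472439 (plus) for HMGN2 and chr6:34236623-34236872 (plus) for HMGA1, and capitals mark CCAAT, or ATTGG where it lies on the other strand.
HMGB1: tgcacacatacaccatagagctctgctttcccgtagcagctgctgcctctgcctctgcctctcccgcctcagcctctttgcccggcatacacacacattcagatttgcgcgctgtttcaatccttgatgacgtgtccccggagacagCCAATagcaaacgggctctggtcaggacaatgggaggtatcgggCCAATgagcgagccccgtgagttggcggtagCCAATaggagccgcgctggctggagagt
HMGB3: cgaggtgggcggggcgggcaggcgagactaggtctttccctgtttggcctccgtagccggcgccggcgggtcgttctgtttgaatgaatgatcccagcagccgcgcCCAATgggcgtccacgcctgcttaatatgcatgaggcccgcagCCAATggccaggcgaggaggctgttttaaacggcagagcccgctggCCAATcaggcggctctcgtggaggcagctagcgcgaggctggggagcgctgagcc
HMGN2: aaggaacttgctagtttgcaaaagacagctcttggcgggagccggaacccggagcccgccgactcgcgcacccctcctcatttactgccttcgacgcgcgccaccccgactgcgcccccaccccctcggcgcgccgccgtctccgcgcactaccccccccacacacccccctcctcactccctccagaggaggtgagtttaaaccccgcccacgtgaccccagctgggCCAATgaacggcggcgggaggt
HMGA1: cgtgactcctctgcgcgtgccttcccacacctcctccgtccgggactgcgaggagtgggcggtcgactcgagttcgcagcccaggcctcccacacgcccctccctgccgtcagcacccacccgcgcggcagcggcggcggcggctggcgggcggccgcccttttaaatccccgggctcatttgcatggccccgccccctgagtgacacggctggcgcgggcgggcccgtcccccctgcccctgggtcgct
CCAAT stood 3 times before the HMGB1 start (103, 59 and 28 bases away), 3 times before HMGB3 (144, 101 and 55 bases) and at 22 bases before HMGN2, and was not found before the first start of HMGA1, while it stood 146 bases before that gene's second listed start. It also stood before HMGN1 (98 and 13 bases) and HMGN3 (95 and 59 bases) but not HMGN5, and 32% of the 35116 promoters of this length hold it on either strand. The cell-cycle element letters TTTGAA were found 172 bases before HMGB3 and 246 bases before the second listed start of HMGB1 (13.3% of promoters), and the C/EBP letters TTGCNNAA 235 bases before HMGN2 (9.05%). TATAAA and the E2F letters TTTCGCGC, TTTGGCGC and TTTCCCGC were not found in the first entry of these 7. The matches describe letters in the window, and which start the cells used was not measured.

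The same senescence comparison was repeated in the second table, whose libraries were not alike. In all 5 groups the libraries numbered 4 and 5 stood apart from those numbered 1 to 3: over 9041 genes, deviations from the group mean had a median correlation of 0.42 between libraries of different groups that were both numbered 1 to 3, of 0.58 when both were numbered 4 or 5, and of -0.49 for 1 of each. The labels name no batch, and they give alternative library kits and sequencers without saying which library had which. Results of this table are therefore given over all libraries and within each set; the sets were chosen after seeing the data, and the difference between them was not tested.

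In OIS-v-v against Grow-v-v 8 of the 9 members passed (45.8% of genes), 1 higher (22.7%) and 7 lower (23.2%), and 6 did not overlap (35% of genes). HMGA2 was 718, 668, 657, 709 and 685 CPM in Grow-v-v replicates 1 to 5 and 1083, 1043, 1046, 1780 and 1469 in OIS-v-v. Every OIS-v-v library was above every Grow-v-v library, and the OIS-v-v libraries numbered 4 and 5 were the highest (log2 fold change 0.91, SE 0.149, edgeR adjusted p = 0.000283). HMGA2 rose within both sets, by 0.64 in replicates 1 to 3 and by 1.22 in replicates 4 and 5 on the log2 scale.

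HMGA1 did not pass in this table. It was 934, 964, 948, 1303 and 1875 CPM in Grow-v-v and 1133, 1166, 1107, 1605 and 1486 in OIS-v-v, so that the groups overlapped through the libraries numbered 4 and 5 (log2 fold change 0.12, 95% interval -0.32 to 0.56, edgeR adjusted p = 0.662). Within replicates 1 to 3 HMGA1 rose by 0.26 (SE 0.045, edgeR adjusted p = 2.35e-05; 66.8% of genes passed in that set), and within replicates 4 and 5 the log2 fold change was -0.04 (SE 0.17; 40.5% of genes).

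The HMGB genes fell here too. HMGB2 was 84.2, 71.1, 76.0, 123 and 127 CPM in Grow-v-v and 13.6, 10.7, 13.4, 19.5 and 18.3 in OIS-v-v, with no overlap (log2 fold change -2.66, SE 0.214). HMGB3 was 65.8, 60.2, 61.3, 88.5 and 90.2 CPM in Grow-v-v and 22.8, 24.7, 21.3, 27.8 and 22.2 in OIS-v-v, again apart (log2 fold change -1.61, SE 0.140). HMGB1 was 234, 204, 218, 271 and 280 CPM in Grow-v-v and 85.1, 79.6, 86.8, 157 and 129 in OIS-v-v (log2 fold change -1.16, SE 0.188). No OIS-v-v library of these genes reached a Grow-v-v library, and all fell within both sets.

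Among the HMGN genes HMGN2 was 151 to 248 CPM over the Grow-v-v libraries and 49.97 to 82.4 in OIS-v-v, without overlap and with nearly the same fall in both sets (log2 fold change -1.55 in replicates 1 to 3, -1.60 in replicates 4 and 5). HMGN1 fell by 0.46 (134 to 185 CPM in Grow-v-v, 94.9 to 136 in OIS-v-v). HMGN3 was 22.6 to 28.1 CPM in Grow-v-v and 11.7 to 23.9 in OIS-v-v. Its fall of 0.63 on the log2 scale was 1.01 within replicates 1 to 3, while replicates 4 and 5 gave -0.21 (edgeR adjusted p = 0.354). HMGN5 fell by 0.86 (1.43 to 2.37 CPM in Grow-v-v, 0.757 to 1.08 in OIS-v-v, no overlap), and within replicates 4 and 5 its value was -0.75 (edgeR adjusted p = 0.124).

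**Figure D2:**
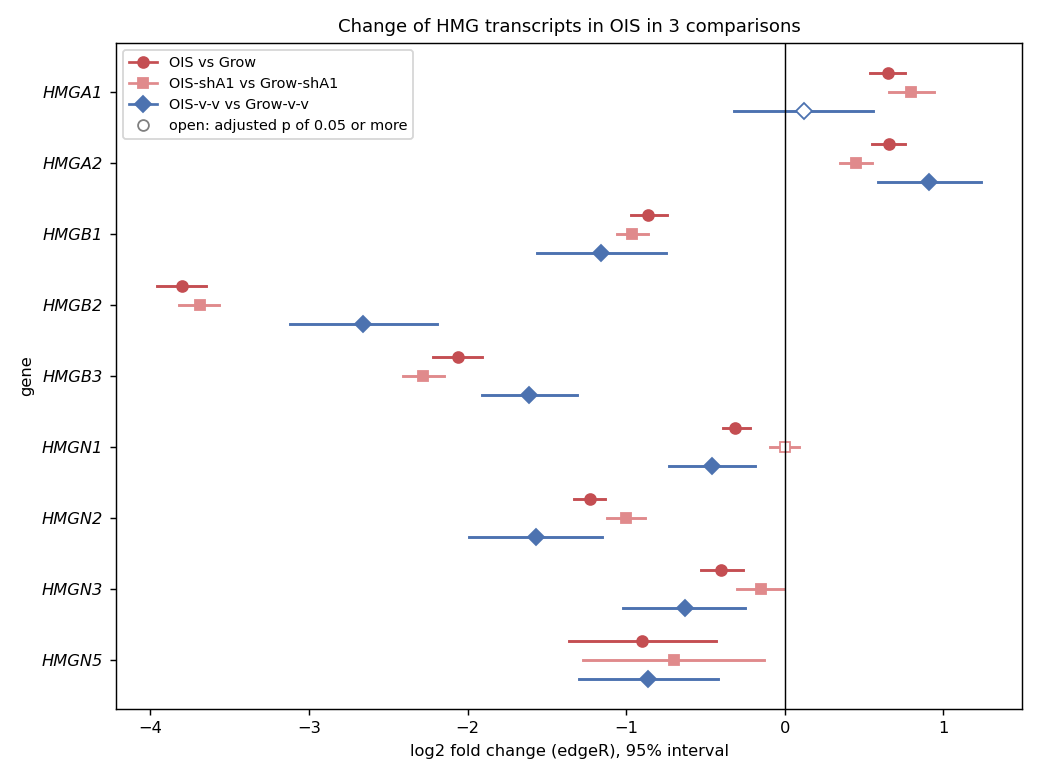
Log2 fold change (edgeR, points) and 95% interval (lines) of each HMG gene in OIS vs Grow, in OIS-shA1 vs Grow-shA1 and in OIS-v-v vs Grow-v-v; open points did not pass an adjusted p of 0.05. HMGA2 is above 0 and HMGB1, HMGB2, HMGB3 and HMGN2 are below 0 in all 3, while HMGN1 lies at 0.00 with shA1.

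The HMGA1 hairpin was examined next, first for its target. HMGA1 was 436 to 557 CPM in Grow and 27.02 to 39.1 in Grow-shA1, and 631 to 825 in OIS and 51.4 to 68.4 in OIS-shA1, so that 7.21% and 8.11% of the messenger remained. What was left still rose with senescence, from 34.65 ± 3.93 CPM in Grow-shA1 to 59.6 ± 5.65 in OIS-shA1 (SD, n = 8, log2 fold change 0.80, SE 0.068).

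In proliferating cells 3 of the 9 members passed with shA1 (29.9% of genes), 1 higher (14.8%) and 2 lower (15.1%), and 2 did not overlap (7.64% of genes), HMGA1 itself among both. HMGA2, the closest relative of the targeted gene, rose: it was 1186 to 1398 CPM in Grow (median 1226) and 1427 to 1740 in Grow-shA1 (median 1645). All 8 Grow-shA1 libraries were above all 8 Grow libraries (log2 fold change 0.37, SE 0.046, edgeR adjusted p = 8.7e-07). HMGN2 was 55.7 to 67.3 CPM in Grow and 50.8 to 63.6 in Grow-shA1, an overlapping fall to 90.1% (log2 fold change -0.15, SE 0.046, edgeR adjusted p = 0.015). The other 6 members did not pass, and apart from HMGN5 (0.11, interval -0.41 to 0.62) their 95% intervals lay between -0.19 and 0.09 on the log2 scale.

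In senescent cells 5 of the 9 passed with shA1 (35.9% of genes), 3 higher (18.8%) and 2 lower (17.1%), HMGA1 among the latter, and 2 did not overlap (9.29% of genes). HMGA2 was 1651 to 2133 CPM in OIS and 1941 to 2360 in OIS-shA1, with 6 of the 8 OIS-shA1 libraries above all OIS libraries (log2 fold change 0.17, SE 0.050, edgeR adjusted p = 0.00755). This call on HMGA2 rests on the scaling, since with library sizes alone its value was 0.09 (edgeR adjusted p = 0.168). HMGN1 was 75.9 to 86.2 CPM in OIS (median 79.1) and 87.0 to 105 in OIS-shA1 (median 93.6). Its groups did not overlap, and it rose to 120% of OIS (log2 fold change 0.26, SE 0.044, edgeR adjusted p = 3.55e-05). HMGN3 was 15.9 to 19.5 CPM in OIS and 18 to 23.0 in OIS-shA1, a rise of 0.21 with overlap that did not pass with library sizes alone (0.12, edgeR adjusted p = 0.145). HMGB3 was 9.98 to 16.2 CPM in OIS and 8.46 to 11.5 in OIS-shA1, an overlapping fall of 0.28 on the log2 scale (SE 0.087, edgeR adjusted p = 0.0131). HMGB1 (log2 fold change -0.09, interval -0.22 to 0.03) and HMGB2 (0.06, interval -0.17 to 0.29) did not pass, nor did HMGN2 (0.09, interval -0.03 to 0.22) and HMGN5 (0.32, interval -0.20 to 0.84).

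With HMGA1 knocked down, senescence again moved most members: 8 of the 9 passed in OIS-shA1 against Grow-shA1 (73.1% of genes), 2 higher (37.1% of genes) and 6 lower (36% of genes), and 6 did not overlap (43.3% of genes). HMGB2 was 68.6 to 80.4 CPM in Grow-shA1 and 4.66 to 6.38 in OIS-shA1 (log2 fold change -3.69). HMGB3 fell by 2.28, HMGN2 by 1.0 and HMGB1 by 0.96 on the log2 scale, and HMGA2 rose by 0.45. HMGN5 was 0.69 to 3.275 CPM in Grow-shA1 and 0.4104 to 1.828 in OIS-shA1, with overlap (log2 fold change -0.70, SE 0.276, edgeR adjusted p = 0.026), a call lost in 4 of the 16 fits with a library left out. HMGN3 was 20.3 to 27.7 CPM in Grow-shA1 and 18 to 23.0 in OIS-shA1, at the edge of the threshold (-0.15, edgeR adjusted p = 0.048) and not called in 9 of the 16 fits with a library left out. HMGN1 was the member that did not pass: it was 88.1 to 103 CPM in Grow-shA1 and 87.0 to 105 in OIS-shA1 (log2 fold change 0.00, interval -0.09 to 0.09, edgeR adjusted p = 0.994).

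Whether the hairpin changed the senescence response was tested as an interaction, in which 3 of the 9 members passed (23.6% of genes), 3 of them higher (12.2% of genes) and 0 lower (11.4%). The 3 were nucleosome-binding members: HMGN1 with a difference of log2 fold changes of 0.32 (SE 0.060, edgeR adjusted p = 7.41e-05), HMGN2 with 0.24 (SE 0.074, adjusted p = 0.0138) and HMGN3 with 0.26 (SE 0.095, adjusted p = 0.0416; lost in 18 of the 32 fits with a library left out). Scaled by library size alone, which shifted the median of all genes by -0.115 in this test, HMGN1 still passed while HMGN2 (0.13, edgeR adjusted p = 0.187) and HMGN3 (0.14, adjusted p = 0.25) did not. For HMGA2 the difference was -0.19 (edgeR adjusted p = 0.0504), at the edge of the threshold: it passed as lower in 11 of the 32 fits with a library left out, with the replicate block (-0.19, adjusted p = 0.0257), with library sizes alone (-0.31, adjusted p = 0.0011), with upper-quartile factors, with at least 10 counts in every library and in DESeq2. HMGA1 (0.17), HMGB1 (-0.09), HMGB2 (0.13) and HMGB3 (-0.20) did not pass. HMGN5, at 0.411 to 3.27 CPM over the knock-down libraries, gave 0.21 with an interval of -0.54 to 0.97. HMGN4, a related nucleosome-binding gene counted among the relatives and not among the 9, passed as well (0.24, SE 0.061, edgeR adjusted p = 0.00339). Its log2 fold change with shA1 was 0.26 in OIS (adjusted p = 0.000166) and 0.02 in Grow (adjusted p = 0.725). Of the 13 relatives tested in the interaction HMGN4 was the 1 higher, and 3 were lower (median -0.1). These were SSRP1 at -0.40, UBTF at -0.30 and HMGXB4 at -0.25. Other lists moved with shA1 too. Of the 15 proliferation genes 7 were higher and 1 lower in Grow-shA1 against Grow (median log2 fold change 0.16), 0 higher and 8 lower in OIS-shA1 against OIS (-0.25), and 0 higher and 9 lower in the interaction (-0.32). Of the 8 fibroblast markers 2 were higher and 5 lower in Grow-shA1 against Grow, 4 higher and 2 lower in OIS-shA1 against OIS, and 5 higher and 1 lower in the interaction. Of all genes 29.9% passed in Grow-shA1 against Grow, 35.9% in OIS-shA1 against OIS and 23.6% in the interaction. The part of these lists in the changes of the HMG genes with shA1 was not tested.

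In H1299 cells the hairpin left 20.1% of HMGA1, 1716 to 1976 CPM with the vector (median 1915) and 357 to 449 with shHMGA1 (median 366), and 2 of the 9 members passed (15.6% of genes), HMGA1 lower (6.93%) and HMGN2 higher (8.65%). HMGA1 was the 1 member whose groups did not overlap (5.21% of genes). HMGN2 was 121 to 154 CPM in H1299 (median 123) and 132 to 176 in H1299-shA1 (median 148), with overlap (log2 fold change 0.20, SE 0.065, edgeR adjusted p = 0.0387), and 8 of the 13 fits with a library left out lost the call. HMGA2 was 1549 to 1714 CPM with the vector and 1465 to 1714 with shHMGA1 (log2 fold change -0.03, interval -0.11 to 0.05), and was not called. The intervals of HMGB1, HMGB2, HMGB3 and HMGN1 lay between -0.13 and 0.16. HMGN3 gave 0.11 (interval -0.06 to 0.28) and HMGN5, at 0.195 to 0.896 CPM, 0.59 (interval -0.05 to 1.24). Without H1299-shA1 replicate 3 both passed, HMGN3 at 0.18 (edgeR adjusted p = 0.0447) and HMGN5 at 0.79 (adjusted p = 0.0468).

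**Figure D3:**
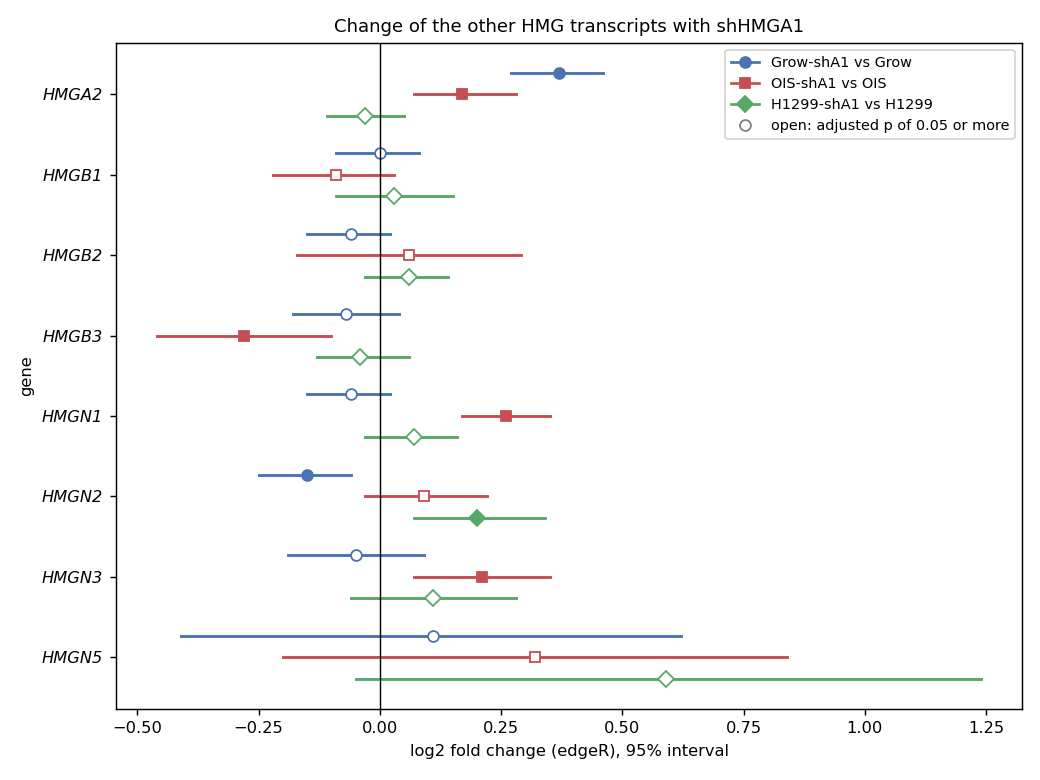
Log2 fold change (edgeR, points) and 95% interval (lines) of the 8 HMG genes other than HMGA1 with shHMGA1, in proliferating IMR90 (Grow), senescent IMR90 (OIS) and H1299 cells; open points did not pass an adjusted p of 0.05. HMGA2 lies at 0.37 in Grow, 0.17 in OIS and -0.03 in H1299, and HMGN1 is above 0 in OIS alone among the called values.

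Knock-down of C/EBPβ, a driver of the inflammatory secretome, and of p53, a driver of the arrest, was then examined in senescent cells. With shCEBPB 1 of the 9 members passed (17.1% of genes), in the higher direction (9.09%; lower 8%), and 0 stood without overlap (15% of genes). HMGB2 was 13.6, 10.7, 13.4, 19.5 and 18.3 CPM in OIS-v-v and 18.6, 20.1, 22.01, 23.6 and 25.5 in OIS-shCEBPB (log2 fold change 0.53, SE 0.152, edgeR adjusted p = 0.0312). All but 1 OIS-shCEBPB library lay above every OIS-v-v library, and the call was lost in 6 of the 10 fits that each left out a library. With the replicate number as a block 3 members passed (31.9% of genes), adding HMGA2 (-0.24, edgeR adjusted p = 0.0232) and HMGB1 (0.21, adjusted p = 0.0454). Within replicates 1 to 3, 4 members passed (32.6% of genes), all higher, and HMGB2 rose by 0.69. Within replicates 4 and 5, 3 passed (24.6% of genes), HMGB2 at 0.36, HMGA2 at -0.46 and HMGN2 at -0.23. The members other than HMGB2 did not pass over all libraries, with log2 fold changes from -0.27 (HMGA2, interval -0.59 to 0.06) to 0.42 (HMGN5, interval -0.03 to 0.86).

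With shp53, 0 of the 9 members passed (4.44% of genes) in edgeR and 0 in DESeq2, and 1 had an unadjusted p under 0.05. For 0 members did the groups stand apart (7.29% of genes). The member with the unadjusted p was HMGB2, at 18.9, 20.2, 19.4, 18.1 and 18.3 CPM against 10.7 to 19.5 in OIS-v-v (log2 fold change 0.33, interval 0.02 to 0.64, edgeR adjusted p = 0.229). The other members lay between -0.21 (HMGA2) and 0.29 (HMGN5). With the replicate block 2 members passed (22.7% of genes), HMGB1 at 0.26 (edgeR adjusted p = 0.0325) and HMGA2 at -0.19 (adjusted p = 0.0322). The 2 sets gave different calls, a difference that was not tested. Within replicates 1 to 3, 6 members passed (34% of genes), all higher, with HMGB2 at 0.63, HMGB1 at 0.46, HMGN2 at 0.21 and HMGA1 at 0.19. Within replicates 4 and 5, 3 passed (5.33% of genes), all lower, HMGA2 at -0.36, HMGN2 at -0.31 and HMGA1 at -0.24. HMGA2 was below 0 in the first set too (-0.07, edgeR adjusted p = 0.176), and HMGN5 was above 0 in both (0.28 and 0.30), called in neither. HMGN2 was 58.9, 59.5, 65.5, 65.6 and 61.9 CPM with shp53 and 55.6, 49.97, 52.6, 82.4 and 76.0 in OIS-v-v. The shp53 libraries lay between the OIS-v-v libraries of the first and of the second set.

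With both hairpins 5 of the 9 members passed against OIS-v-v (33.6% of genes), 4 higher (17.1%) and 1 lower (16.5%), and 3 did not overlap (24.1% of genes). HMGB2 was 33.7, 37.0, 36.9, 26.6 and 26.5 CPM in OIS-shCEBPB-shp53, above every OIS-v-v library (log2 fold change 1.08, SE 0.162, edgeR adjusted p = 0.000327). HMGB1 was 143, 151, 157, 165 and 164 CPM against 79.6 to 157, with 3 of the 5 libraries above all of OIS-v-v (log2 fold change 0.53, SE 0.165, edgeR adjusted p = 0.0274), a call lost in 6 of the 10 fits with a library left out. HMGB3 was 33.4, 32.6, 32.7, 30.6 and 27.5 CPM against 21.3 to 27.8 (log2 fold change 0.39, SE 0.083). The lowest of these, replicate 5, fell within the OIS-v-v range. HMGN5 was 2.12, 1.56, 1.93, 1.22 and 2.26 CPM against 0.757 to 1.08, without overlap (log2 fold change 0.91, SE 0.208). HMGA2 fell: it was 833, 864, 771, 1004 and 970 CPM, every library below the 1043 to 1780 of OIS-v-v (log2 fold change -0.54, SE 0.147, edgeR adjusted p = 0.0134). With library sizes alone, which shifted the median of all genes by 0.102, HMGA2 gave -0.45 (edgeR adjusted p = 0.0507), and with the replicate block 6 members passed (43.4% of genes), HMGN1 joining at 0.21 (adjusted p = 0.0245).

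The members that did not pass over all libraries were HMGA1 (0.15), HMGN1 (0.20), HMGN2 (0.10) and HMGN3 (0.25). The 2 sets again gave different calls. Within replicates 1 to 3, 9 of the 9 members passed (53.7% of genes), 8 higher and HMGA2 lower, with HMGB2 at 1.5, HMGB1 at 0.84 and HMGN2 at 0.42. Within replicates 4 and 5, 3 passed (28.7% of genes), HMGB2 at 0.48, HMGA2 at -0.73 and HMGN2, with the opposite sign, at -0.29. HMGB2 higher and HMGA2 lower held in both sets. Leaving out OIS-v-v replicate 4 alone raised the number of members that passed from 5 to 8. The share of all genes that passed in that fit is not given, so this count cannot be set against it.

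**Figure D4:**
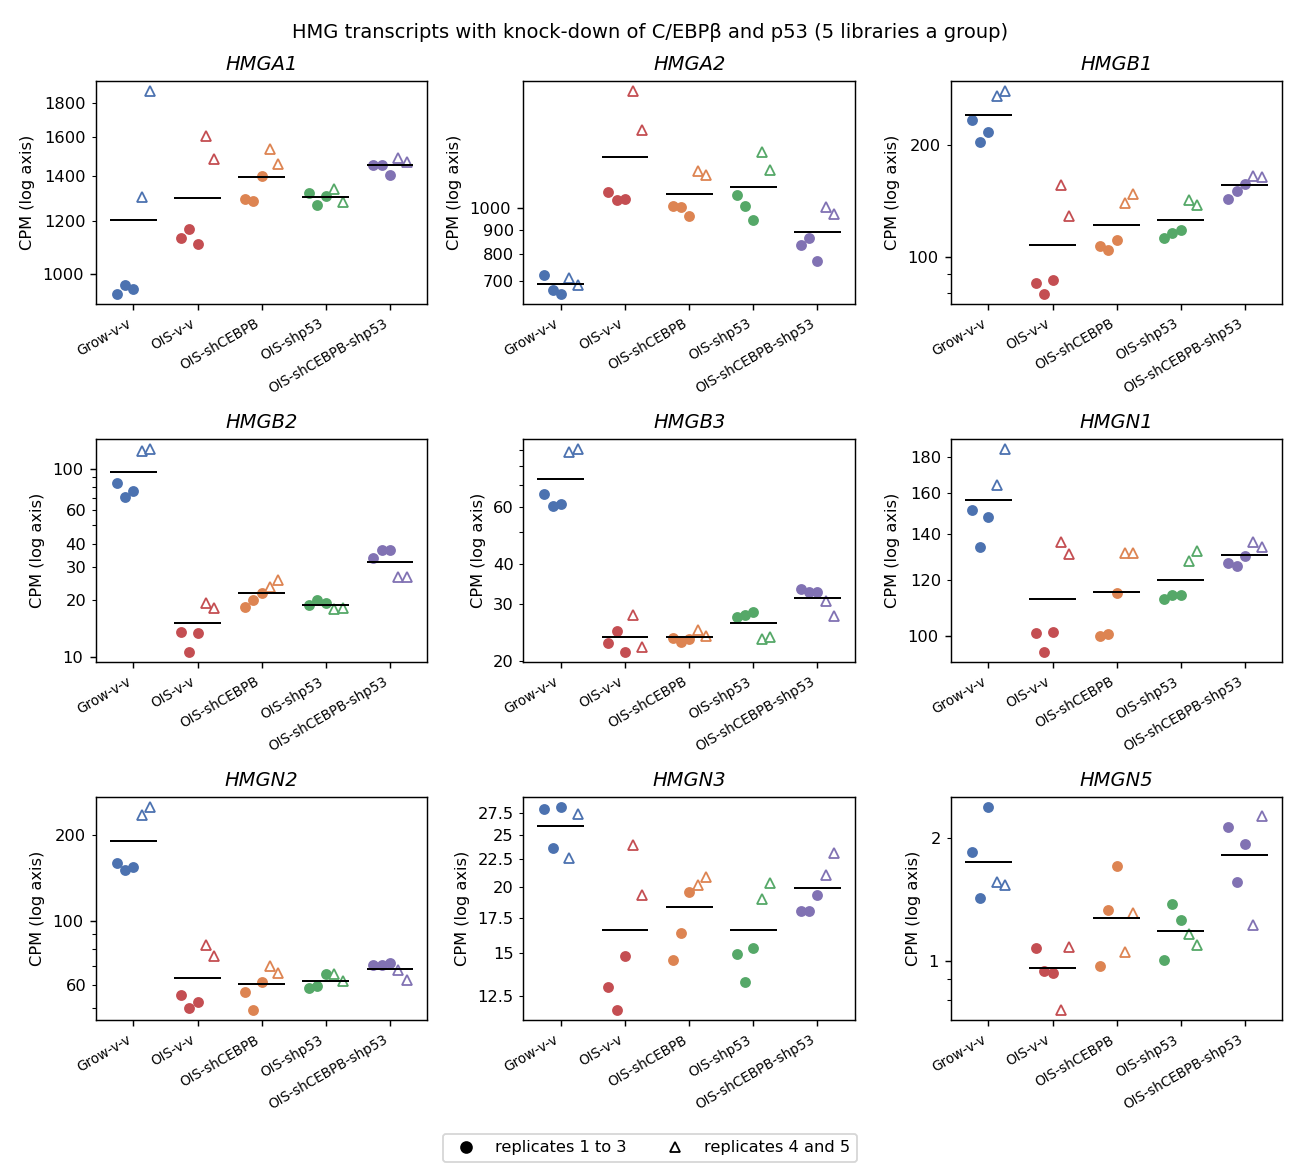
Level of each HMG messenger (CPM, log axis, a separate scale for each gene) in the 5 libraries of each group of the second table, from Grow-v-v to OIS-shCEBPB-shp53; filled circles are replicates 1 to 3, open triangles replicates 4 and 5, and black lines are means over all 5. In OIS-v-v the triangles of HMGA1, HMGA2, HMGB1, HMGB2, HMGN1, HMGN2 and HMGN3 lie above all the circles.

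**Figure D5:**
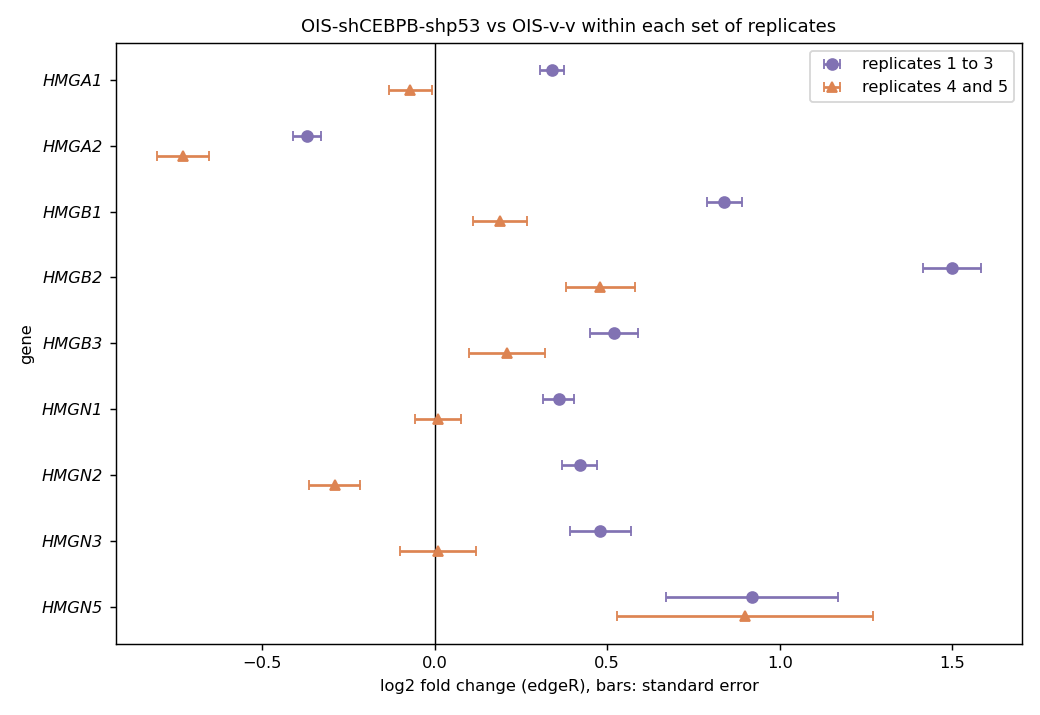
Log2 fold change (edgeR, points) and standard error (bars) of each HMG gene in OIS-shCEBPB-shp53 against OIS-v-v, within replicates 1 to 3 (circles, 3 libraries a group) and within replicates 4 and 5 (triangles, 2 a group). HMGB2 is above 0 and HMGA2 below 0 in both sets, and HMGN2 is at 0.42 in the first and -0.29 in the second.

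With both hairpins most members still stood apart from their levels in proliferating cells. Against Grow-v-v, 7 of the 9 passed in OIS-shCEBPB-shp53 (49.9% of genes), HMGA2 higher by 0.38 (24% of genes) and 6 lower (25.8%), and 5 did not overlap (38.7% of genes). HMGB2 was 26.5 to 37.0 CPM against 71.1 to 127 in Grow-v-v, 33.6% of it, HMGN2 36.3%, HMGB3 43.1% and HMGB1 64.9%. HMGN3 fell to 76.9% and HMGN1 to 83.9% of Grow-v-v (log2 fold change of HMGN1 -0.25, edgeR adjusted p = 0.0238, lost in 2 of the 10 fits with a library left out and with library sizes alone, adjusted p = 0.135). HMGN5 gave a log2 fold change of 0.05 (interval -0.41 to 0.51). HMGA1 gave 0.28 (interval -0.10 to 0.66, edgeR adjusted p = 0.21), and without Grow-v-v replicate 5 it was called at 0.49 (adjusted p = 0.000903). The interaction of shCEBPB and shp53 was called for 0 of the 9 members in edgeR (0.0432% of genes; 1 member, HMGB3, at an unadjusted p under 0.05 with a difference of 0.27) and for 0 in DESeq2.

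Other genes of nuclear architecture were set beside the members. Of 16 relatives that carry an HMG box or resemble the members, 13 were tested in OIS against Grow, 4 were higher and 7 lower (median log2 fold change -0.13). The largest rises were HMGXB3 at 1.25, SSRP1, a subunit of the histone chaperone FACT, at 0.85 and TFAM, which packages mitochondrial DNA, at 0.67. The relatives called lower lay between -0.51 (HMGN4) and -0.13 (PBRM1). Of 19 lamina and heterochromatin genes 6 were higher and 11 lower (median -0.26), with LMNB1, whose loss marks senescent cells, at -3.12, LBR at -1.67 and the HP1 gene CBX5 at -0.90. By mean CPM LMNA (695.4 in Grow, 337.1 in OIS), MACROH2A2 (11.72 and 5.316) and, narrowly, SUV39H1 (12.39 and 6.359) fell further in proportion than CBX5 (325.6 and 170.4). Of 7 linker histone genes 3 could be tested, 1 higher and 2 lower (median -0.39), H1-10 falling by 1.08 on the log2 scale. With shA1 in senescent cells the lamina list had 1 gene higher and 9 lower (median -0.13; SUV39H1, a histone methyltransferase of heterochromatin, at -0.64), and the HMG relatives 2 higher and 4 lower (median -0.08). In proliferating cells shA1 gave 2 higher and 4 lower in the lamina list (median 0.03). The medians over all genes tested were within 0.03 of 0 in these comparisons. Of all genes tested 74.8% passed in OIS against Grow, 35.9% with shA1 in senescent cells and 29.9% with shA1 in proliferating cells.

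The proliferation genes moved in the same direction as HMGB2 with both hairpins as well: 11 of 15 were higher and 0 lower in OIS-shCEBPB-shp53 against OIS-v-v (median log2 fold change 0.65), BUB1 at 1.26 and CCNB1 at 1.25. Over all genes tested 17.1% were higher and 16.5% lower in that comparison. The sum of the 15 was 446 to 717 CPM in OIS-v-v and 864 to 922 with both hairpins, and its part in the rise of HMGB2 was not tested. LMNB1 rose by 0.70 on the log2 scale.

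Of 10 genes for receptors and partners of extracellular HMGB1, 4 were tested in OIS against Grow, 2 higher (38.8% of genes) and 1 lower (35.9%). The receptor gene AGER did not pass (log2 fold change -0.34, edgeR adjusted p = 0.199). In OIS-v-v against Grow-v-v 2 were higher (22.7% of genes) and 2 lower (23.2%), AGER among the latter (-1.37, edgeR adjusted p = 9.25e-05). The largest changes in OIS against Grow were as follows. TREM1, a myeloid receptor, rose by 6.06 and THBD, the thrombin receptor that can bind HMGB1, by 4.81 on the log2 scale, while CXCL12, the chemokine that pairs with HMGB1, fell by 6.57. With shCEBPB in OIS TREM1 fell by 2.71 and THBD fell by 2.52, and with both hairpins TREM1 fell by 3.10 and THBD fell by 3.27; with shp53 alone TREM1 was higher by 1.09. THBD rose with shHMGA1 in proliferating IMR90 (1.57) and in H1299 (2.47), but gave 0.01 in OIS-shA1 against OIS (edgeR adjusted p = 0.935), a difference between the states of -1.56 (adjusted p = 1.26e-07). CXCL12 fell by 1.02 in Grow-shA1 against Grow. HAVCR2 fell by 1.26 in OIS-shA1 against OIS.

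Over the 32 IMR90 libraries of the first table, which share the contrast of Grow with OIS, HMGB2 and HMGB3 had a correlation of log2 CPM of 0.99, HMGB1 and HMGB3 of 0.98 and HMGB2 and HMGN2 of 0.98, while HMGA2 and HMGB3 had -0.85. Among the 8901 genes compared, those most like HMGB2 were CRIM1, MYBL2 and CCNA2 (r = 0.996), and those most like HMGB3 were ANLN, TPX2 and TOP2A (0.996). HMGA2 was most like ETV1 (0.983), PHLDA1 and CSGALNACT2, and HMGB1 like CDK6 (0.989), FAM107B and NUCKS1. HMGN2 was most like GALNT5 (0.989), HMGN1 like TLK1 (0.899), HMGN3 like ASPH (0.896) and HMGN5 like PRXL2C (0.740). HMGA1, which the hairpin lowers, was most like TRIR (0.978) and BGN (0.961).

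HMG genes have many processed pseudogenes, and fragments that match several places were not counted where the headers say so. Counts assigned to pseudogenes named after a member were small: HMGA1P4 drew no more than 4 counts in any library, HMGB3P22 no more than 6, and HMGB1P5 reached 0.761% of the HMGB1 count in the first table and 3.27% in the second. HMGN2P46 reached 7.78% of HMGN2 in OIS. Reads lost to multiple mapping cannot be recovered from the tables, so the level of a member with close copies is uncertain, which bears on the comparison of genes with each other.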

How the data were processed

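RNA was sequenced as mRNA libraries, and the authors used STAR for alignment to hg19 and Subread featureCounts for counting over exons of Ensembl genes. The deposited values are raw counts per gene, and none was normalised by the authors. Headers of 2 tables name featureCounts 1.5.2, unstranded counting and no multi-mapped reads; for the table with shCEBPB and shp53 these settings are not given in the sources used here. Symbols were matched for 95.9% of 44503 genes.

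Counts were tested with edgeR 4.0.16 (R 4.3.3; TMM factors, filterByExpr, quasi-likelihood F test) between the groups compared, or over 4 groups for an interaction, with Benjamini-Hochberg adjustment over all genes tested and calls at an adjusted p under 0.05. CPM values use TMM-scaled library sizes. Depth was 1903607 to 22136571, 14544053 to 24890797 and 17747670 to 23649765 counts a library in the 3 tables, which were fitted separately. The fits were tested on simulated data. Alternatives were DESeq2 1.42.0, other scalings and filters, other call rules, 1 fit over all groups, a replicate block and leaving out each library. No pair of libraries in a group agreed within sampling noise.

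The members, gene lists and tests were chosen with earlier results of these data known. In every comparison over all libraries the members that passed are named. Those that did not are given singly or by their range, except in the interaction of shCEBPB and shp53. Within the sets of replicates some members are not named. Of a list, genes that passed with a fold change of at least 1.5 may be named. Some HMG relatives and HMGB1 receptors are given below that limit. The 3 genes most like a member by correlation over 32 libraries, with a mean of at least 10 CPM, may also be named.

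The labels do not say that a replicate number marks a shared culture. In the table with shCEBPB and shp53 same-numbered libraries deviated together, every pair of every comparison having a correlation over 0.1 (0.13 to 0.74). Libraries of different groups within a set did so whatever their numbers (median 0.42 for 1 to 3, 0.58 for 4 or 5). The correlations therefore cannot tell a pairing by number from the sets, and the replicate block assumes such a pairing. In the other tables some pairs were at or below 0.1. The fit with the replicate block is given beside a result where it changes the call. Some results for single genes are not reported here.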

Additional observations from a re-analysis of the deposited data

Results flagged for a closer look

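HMGA1 in H1299-shA1 replicate 3 was 449.2 CPM, above the 356.8 to 380.9 of the other 5 libraries by more than Dixon's 95% limit for the gap of a single value. HMGB3 in H1299 replicate 1, at 52.31 CPM against 48.23 to 49.68 in the others, and HMGN5 in OIS replicate 4, at 1.907 CPM against 0.6876 to 1.052, stood apart in the same way. The last rests on 4 counts in the shallowest library. Of 99 groups of values examined, 3 were set apart, where chance flags about 1 in 20 groups, or 5.0.

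The senescence response differed between cells with and without shHMGA1, by the interaction test, for HMGN1 (difference of log2 fold changes 0.32), HMGN2 (0.24) and HMGN3 (0.26). HMGN1 was lower in OIS than in Grow by 0.31 on the log2 scale and differed by 0.00 with the hairpin. The HMGN3 difference was lost in 18 of the 32 fits that left out a library and the HMGN1 difference in 0. With library sizes alone HMGN1 still passed, while HMGN2 and HMGN3 did not. HMGA2, at the edge of the threshold in the main fit, passed as lower in several of the alternative fits.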

How the results depend on the processing

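With the other scalings, filters and DESeq2 and with each library left out, 9 members passed in OIS against Grow and 8 in OIS-v-v against Grow-v-v, except that a minimum of 10 counts in every library left 8 in the first, HMGN5 being too low to test; without OIS replicate 4 (chosen after seeing the data) 9 passed. The replicate block raised the members that passed to 3 with shCEBPB and 2 with shp53, and added HMGN1 with both hairpins. In the first table it added the HMGA2 interaction (-0.19, edgeR adjusted p = 0.0257), and it changed no other call. Some same-numbered pairs of the first and the H1299 table had a correlation at or below 0.1, so a pairing by number is uncertain there. With an adjusted p under 0.01 the counts were 1 in H1299-shA1, 3 in OIS-shA1 against OIS, 0 with shCEBPB, 3 with both hairpins against OIS-v-v and 1 for the shA1 interaction. With a fold change of at least 1.5 they were 1, 1, 0, 2 and 0 in that order, 1 in Grow-shA1 against Grow and 4 with both hairpins against Grow-v-v. The stricter p left 6 members in OIS-shA1 against Grow-shA1, 7 in OIS-v-v against Grow-v-v and 2 in Grow-shA1; the fold limit left 7 in OIS against Grow, 6 in OIS-shA1 against Grow-shA1 and 7 in OIS-v-v. Replicates 1 to 3 alone gave 4, 6 and 9 members with shCEBPB, shp53 and both, and replicates 4 and 5 alone 3, 3 and 3. Leaving out a library gave 1 to 4 members in H1299-shA1 (4 without its replicate 3), 0 to 1 with shCEBPB, 4 to 8 with both hairpins against OIS-v-v, 6 to 8 against Grow-v-v, 6 to 8 in OIS-shA1 against Grow-shA1 and 2 to 4 for the shA1 interaction. For these fits and for the stricter call rules the share of all genes that passed is not given, so the member counts stand without it. Signs turned with library sizes alone for HMGB2 in OIS-shA1 against OIS (-0.03) and HMGB3 with shCEBPB (0.06). With replicates 4 and 5 alone they turned for HMGA1 (-0.06), HMGN1 (-0.04) and HMGN3 (-0.09) with shCEBPB, for HMGB1 (-0.03), HMGB2 (-0.06), HMGB3 (-0.09) and HMGN1 (-0.04) with shp53, for HMGA1 (-0.07) and HMGN2 (-0.29) with both, for HMGA1 in OIS-v-v (-0.04) and with both hairpins (-0.10) against Grow-v-v, and for HMGA2 in the interaction of the hairpins (0.09). With replicates 1 to 3 alone they turned for HMGB3 (0.01) and HMGN2 (0.08) with shCEBPB, HMGN2 with shp53 (0.21), HMGN5 with both against Grow-v-v (-0.01), and HMGA1 (-0.08) and HMGN3 (-0.03) in that interaction. Leaving out a library turned HMGB3 (-0.05 to 0.05), HMGN1 (-0.03 to 0.11) and HMGN2 (-0.14 to 0.05) with shCEBPB, HMGN2 with shp53 (-0.10 to 0.09), HMGN5 in Grow-shA1 (-0.04 to 0.23) and with both against Grow-v-v (-0.04 to 0.19), and HMGA1 (-0.04 to 0.10), HMGA2 (-0.21 to 0.01), HMGB1 (-0.05 to 0.21) and HMGN3 (-0.06 to 0.21) in the interaction of the hairpins. The cause was not tested. Over all genes, shp53 called 594 (DESeq2 1092, block 3037, replicates 1 to 3 4578), shCEBPB 2290 (block 4270, replicates 1 to 3 4408), both hairpins 4502 (replicates 1 to 3 7240) and their interaction 6 (DESeq2 30, block 104, no filter 3, sets 463 and 294). Library sizes alone moved the share of calls that were higher from 51.9% to 66.2% in OIS against Grow (median shift 0.189), from 49.4% to 60.3% in Grow-shA1, from 52.3% to 27.8% in OIS-shA1 against OIS, from 51.7% to 20.4% in the shA1 interaction, from 53.2% to 70.9% with shCEBPB, from 50.9% to 71.0% with both hairpins and from 48.2% to 60.1% for these against Grow-v-v. Depth limits HMGN5, which had 4 to 19 counts in the OIS libraries.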

Other observations

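Of 11 genes of CTCF and cohesin, which hold chromatin loops, 4 were higher and 5 lower in OIS against Grow (median log2 fold change -0.01), and RAD21, the cohesin kleisin subunit, fell by 0.88 on the log2 scale. With shA1 in senescent cells 4 were lower and 0 higher (median -0.12), and in proliferating cells 4 were higher and 0 lower (median 0.09). Over all genes tested 35.9% passed with shA1 in senescent cells (17.1% lower) and 29.9% in proliferating cells (14.8% higher). In OIS against Grow 74.8% of all genes passed. Of 8 genes of the LIN28, let-7 and IGF2BP axis, which controls and reads HMGA2, 5 were tested in OIS against Grow, 2 higher and 3 lower (median -0.12).

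Proliferating and senescent vector cells were sequenced for both IMR90 tables, and in growing cells the HMGA pair stood in a different order of CPM in each. HMGA1 was 482 ± 41.4 CPM (SD, n = 8) in Grow and 1205 ± 405 (n = 5) in Grow-v-v, while HMGA2 was 1262 ± 83.1 in Grow and 688 ± 26.3 in Grow-v-v. In senescent cells HMGA1 was 631 to 825 CPM in OIS and 1107 to 1605 in OIS-v-v, and HMGA2 was 1651 to 2133 in OIS and 1043 to 1780 in OIS-v-v, where the ranges of the pair overlapped. Divided by exon length HMGA1 was above HMGA2 in all 4 groups. HMGN2 was 63.0 ± 3.66 CPM in Grow and 190 ± 47.7 in Grow-v-v. The tables were normalised separately and differ in vectors, and the counting settings of the second are not given in the sources used here, so these values are set side by side without a test.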
